A study of Homo sapiens with 4 samples.

Results

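The miRNAs described here are miR-34a, miR-34b, miR-34c, miR-192, miR-194 and miR-215, which are linked by their regulation through p53. They were chosen by name and not by a cut on their values, although with earlier results of these data known. The human matched probes of these 6 names were taken, of 455 human miRNA names on the array. With the probe of each name that carries 2 mismatches, this gave 12 of 1406 probe names. RNA came from LAPC-4, a human prostate cancer cell line that carries the androgen receptor. All cells were first kept for 24 hours in androgen-free medium with 10% charcoal-stripped serum and then received the synthetic androgen R1881 at 0, 0.1, 1 or 10 nM. For each dose, Cy3-labelled total RNA (10 µg) went onto 1 custom CombiMatrix oligonucleotide array, so the series holds 4 arrays of 1 line and no replicates. The sources used here do not give the time R1881 was present or say whether the arrays came from separate flasks. With bulk RNA, fewer cells with a miRNA and less of it per cell cannot be told apart.

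The transcription factor p53 responds to DNA damage and other stress, and the miR-34 genes are among its direct targets. miR-34a, miR-34b and miR-34c repress cell-cycle and survival genes such as CDK4, CDK6, MYC and BCL2, and miR-34a is known to target the androgen receptor in prostate cancer cells. The miR-192 group (miR-192, miR-194 and miR-215) is abundant in gut, liver and kidney, is raised by p53 in several cell types, and slows the cell cycle. p53 itself was not measured on these arrays.

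Mature sequences are shown because seeds group the miRNAs and because near-identical miRNAs bear on how the probes can be read. They are the 5p arms in RefSeq for GRCh38.p14, with the seed (bases 2 to 8) in capitals. The array names carry no arm and no probe sequence was at hand, so the sources used here leave the arm each probe detects unstated. Of the 6 names, 5 had a 5p entry in the table, and miR-34c is named only.
hsa-miR-34a-5p: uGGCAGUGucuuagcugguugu
hsa-miR-34b-5p: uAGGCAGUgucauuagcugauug
hsa-miR-449a: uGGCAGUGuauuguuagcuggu
hsa-miR-449b-5p: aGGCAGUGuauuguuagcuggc
hsa-miR-192-5p: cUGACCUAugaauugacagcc
hsa-miR-215-5p: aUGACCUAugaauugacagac
hsa-miR-194-5p: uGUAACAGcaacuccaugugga

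miR-34a lies at chr1:9151735-9151756 on the minus strand, inside the non-coding host gene MIR34AHG, and shares its seed with miR-449a and miR-449b, whose genes lie inside CDC20B on chromosome 5. miR-34b lies at chr11:111512950-111512972 on the plus strand. It starts 1 base earlier, so that GGCAGUG stands at position 3 in place of 2, and the genes of miR-34b and miR-34c both lie inside MIR34BHG. miR-192 (chr11:64891203-64891223, minus strand) and 1 of the 2 copies of miR-194 (chr11:64891404-64891425, minus strand) lie inside MIR194-2HG. miR-215 (chr1:220117916-220117936, minus strand) and the other copy of miR-194 (chr1:220118206-220118227, minus strand) lie within the span of IARS2. The 2 copies of miR-194 have the same mature sequence, so the miR-194 probe reads both loci together. Counted from 1 at the 5′ end, miR-192-5p and miR-215-5p are identical at 19 of 21 bases and differ by C1A and C20A, with miR-192 as the reference. Among 2370 human mature miRNAs in the table they are the only 2 with the seed UGACCUA. The signals of miR-192 and miR-215 on each other's probe cannot be told apart here. The mismatch probes given below carry 2 mismatches of unstated position, so they cannot stand in for the differences C1A and C20A.

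The deposited values are mean spot intensities on a linear scale, and a name was called detected on an array where its matched probe was brighter than 95% of the mismatch probes there (their 95th percentile). That limit stood at 118 without R1881 and at 135.5, 138 and 143.5 with 0.1, 1 and 10 nM. By this rule 29.9% of the 455 human names were detected on at least 1 array and 23.3% on all 4. The limit may be a lenient one: of 107 probes named for virus and worm miRNAs, between 9.35% and 15.0% exceeded it on each array. Whether any of these probes also bind human miRNAs was not tested. Median intensity over all probes was 83 to 91.5. Of 7 epithelial and prostate marker miRNAs 5 were detected (not miR-200a or miR-205), 4 of them on all 4 arrays. The summed intensity of all 7 was 2079 to 2650. Of 5 blood markers and 1 liver marker 0 were detected, and 1 each of 4 muscle, 3 stromal and 3 neural markers was detected.

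All 3 miR-34 probes stayed under the detection limit on all 4 arrays, whereas all 3 probes of the miR-192 group were above it on all 4. The matched probe of miR-34a, the member most often tied to p53, read 107 without R1881 and 107.5, 114.25 and 112.5 at 0.1, 1 and 10 nM. Its mismatch probe read 101, 112.5, 114 and 109 in the same order. The matched and mismatch probes of miR-34a were thus within 6 intensity units of each other on every array, and the mismatch probe was the brighter one at 0.1 nM.

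miR-34b read 100.75, 87.5, 98.75 and 87.25 at rising dose, against 90, 89.5, 104.5 and 75 for its mismatch probe. miR-34c, which is transcribed together with miR-34b, read 104, 98, 102.5 and 81.5, against 100, 92, 121 and 78.5. The mismatch probe of miR-34b was brighter at 0.1 and 1 nM and that of miR-34c at 1 nM. Because all of these values lie under the limit at every dose, no fold is given for them. The lowest value of miR-34b and of miR-34c was at 10 nM. On that array the median of the mismatch probes was lowest, at 76 against 82 to 87 on the others, although their 95th percentile was highest, at 143.5.

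Human relatives of miR-34 were undetected too. The probe for miR-449, which shares the miR-34a seed, read 89.25, 90.5, 90.5 and 88 in order of dose, and miR-449b read 115.5, 110, 105.25 and 96. Both were under the limit on all 4 arrays, but unlike the miR-34 probes both were brighter than their mismatch probes on all 4, by ratios of 1.04 to 1.12 for miR-449 and 1.10 to 1.21 for miR-449b. A separate mouse-named miR-34b probe read 89.75 to 95.75 and was likewise undetected. A probe for the worm miR-34 read 138, 137, 123 and 133 in order of dose and was above the limit at 0 and 0.1 nM. At this level of signal over background, the human miR-34 probes did not detect miR-34 in LAPC-4 cells with or without R1881, which does not show that it was absent.

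**Figure D1:**
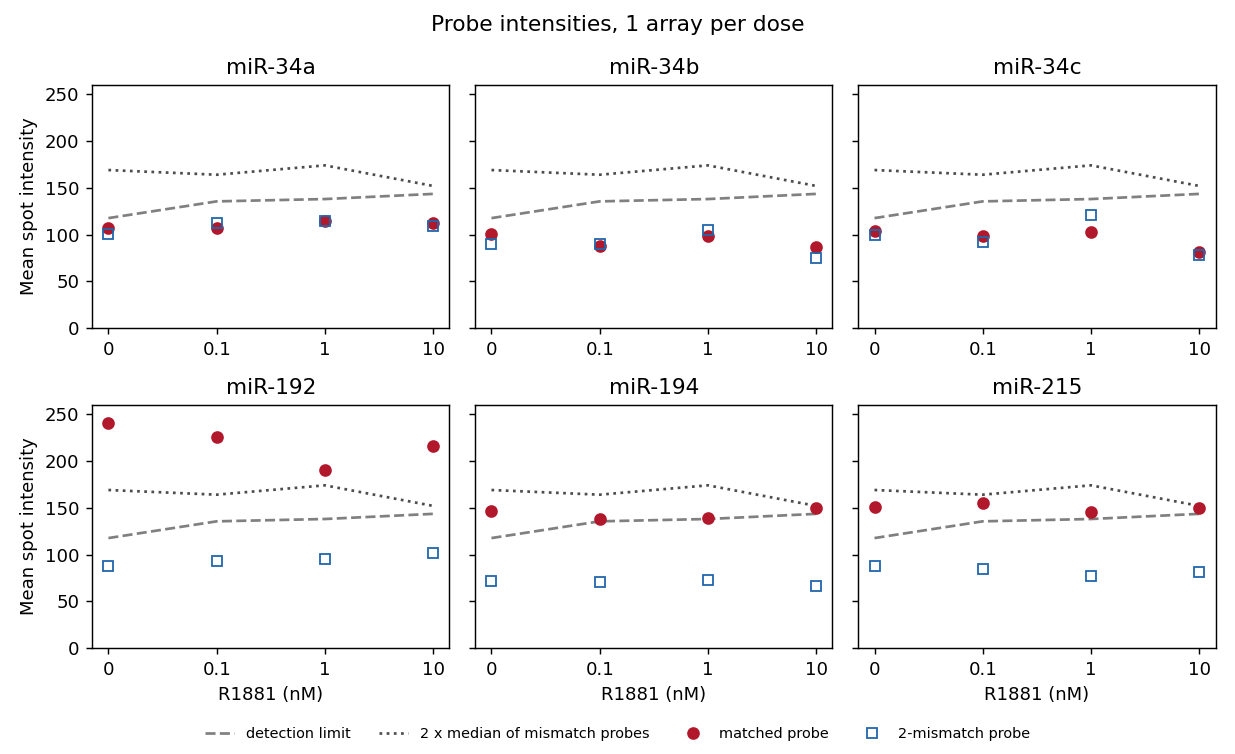
Mean spot intensity (linear scale) of the matched probe (filled circles) and the 2-mismatch probe (open squares) against R1881 dose for the 6 miRNAs, with 1 array per dose and no error bars. The dashed line is the detection limit and the dotted line 2 times the median of the mismatch probes; miR-192 alone lies above both on all 4 arrays, and the miR-34 probes lie under both.

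The matched probe of miR-192 read 240.75 without R1881 and 225.5, 190.5 and 216 with 0.1, 1 and 10 nM, so every treated array was below the untreated one and the lowest value was at 1 nM. Its mismatch probe went the other way, reading 88, 93, 95 and 102. The ratio of matched to mismatch was 2.74 without R1881, 2.42 at 0.1 nM, 2.01 at 1 nM and 2.12 at 10 nM.

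miR-194, which comes in part from the same host transcript as miR-192, read 146.5, 137.5, 139.5 and 149.75, against 72, 70.5, 73 and 66 for its mismatch probe. The array at 10 nM was the brightest and the arrays at 0.1 and 1 nM the dimmest. miR-194 exceeded the limit by 28.9 units without R1881 but by 2, 1.5 and 6.25 units at the 3 doses, where the limit was higher. Its detection on the treated arrays was therefore narrow. miR-215 read 150.5, 154.75, 145 and 150.25, a span of 1.07-fold between its highest and lowest array, with a mismatch probe at 87.5, 84.5, 77 and 81.5. It exceeded the limit by 32.9 units without R1881 and by 19.25, 7 and 6.75 units at 0.1, 1 and 10 nM. With the stricter 99th percentile of the mismatch probes as the limit, miR-192 was detected on 3 of 4 arrays (not at 1 nM) and miR-194 and miR-215 on 0.

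**Figure D2:**
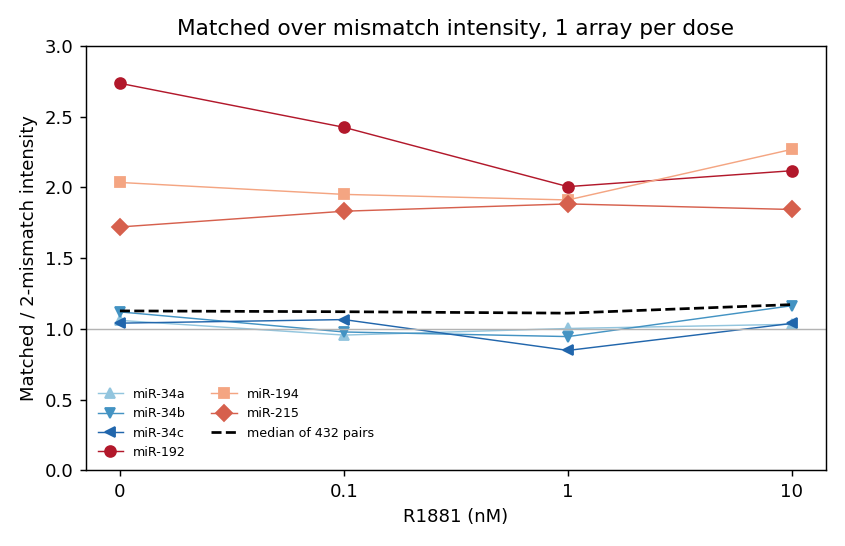
Ratio of matched to 2-mismatch intensity (linear axis from 0) against R1881 dose for the 6 miRNAs, with 1 array per dose. The dashed line is the median of 432 human probe pairs; miR-192, miR-194 and miR-215 lie at 1.72 or above on each array and the miR-34 probes at 1.16 or below.

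Over 432 human pairs of matched and mismatch probes with no value at 0, the median ratio of matched to mismatch was 1.13, 1.12, 1.11 and 1.17 in order of dose. The matched probe was the brighter one on all 4 arrays in 62.7% of pairs. All 3 members of the miR-192 group did so, with ratios of 2.01 to 2.74 for miR-192, 1.91 to 2.27 for miR-194 and 1.72 to 1.88 for miR-215. None of the 3 miR-34 members did, and their ratios ran from 0.847 to 1.16. The pair behaviour was not part of how the members were chosen, but it is tied to detection, because the limit itself comes from mismatch probes. Of the 106 human names detected on all 4 arrays, 99 had a matched probe brighter than their mismatch probe on each.

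The mouse-named probes of miR-192 and miR-215 did not follow the human ones. The mouse-named miR-192 probe read 75, 76.25, 79.25 and 73.75, near its own mismatch probe at 71.5, 70, 72 and 77, and the mouse-named miR-215 probe read 94.75, 96.25, 96.5 and 96.75. Both were under the limit on all 4 arrays, unlike the human probes of the same names. The sources used here do not state how the mouse-named probes differ in sequence from the human ones.

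The authors' deposited table of processed values bears on the same question of detection. Each filled value in it equals the spot intensity less 1 constant per array, 84.5, 82, 87 and 76, and these constants equal the medians of that array's mismatch probes. A value is filled exactly where the intensity is at least 2 times that median (169, 164, 174 and 152), a rule that matched all 802 table entries on each array. Of the members, miR-192 alone has values there, 156.25, 143.5, 103.5 and 140 in order of dose in the authors' deposited table. miR-194 and miR-215 are blank at every dose, although at 10 nM they were only 2.25 and 1.75 units short of the threshold.

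Each dose was set against the untreated array. With 1 array per dose, an effect of R1881 cannot be told apart from a difference between arrays. After background correction, quantile normalization and log2, the log2 ratios of miR-192 to untreated were −0.26 at 0.1 nM, −0.58 at 1 nM and −0.55 at 10 nM, or 1.20-, 1.50- and 1.46-fold below it. The ratios of miR-194 were −0.29, −0.29 and −0.27, and those of miR-215 were −0.16, −0.28 and −0.31. All 3 detected members were therefore below untreated at all 3 doses, as were 42.6% of the 136 detected human miRNAs, while 26.5% were above at all 3. Some of the 136 passed the limit only where they were high; of the 106 detected on all 4 arrays, as these 3 were, 35.8% were below at all 3 doses. These 3 ratios share 1 untreated array and have no replicate error, and no test was made of a single dose.

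Whether miR-194 and miR-215 lay below untreated depended on how the arrays were scaled. With no scaling, their ratios were −0.07, −0.08 and 0.12 for miR-194 and 0.08, −0.06 and 0.08 for miR-215, both with mixed signs, and those of miR-192 were −0.08, −0.37 and −0.11. Detected miRNAs as a whole were brighter on the treated arrays before scaling, with a median log2 ratio of 0.13, 0.17 and 0.38 at 0.1, 1 and 10 nM. With no scaling 1 of the 3 detected members, miR-192, was below untreated at all 3 doses, against 6.62% of the 136 and 5.66% of the 106. After subtraction of its own mismatch probe, the signal of miR-192 was 152.75, 132.5, 95.5 and 114 units. The same difference was 74.5, 67, 66.5 and 83.75 for miR-194 and 63, 70.25, 68 and 68.75 for miR-215, so by this measure miR-215 was higher on every treated array than on the untreated one.

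**Figure D3:**
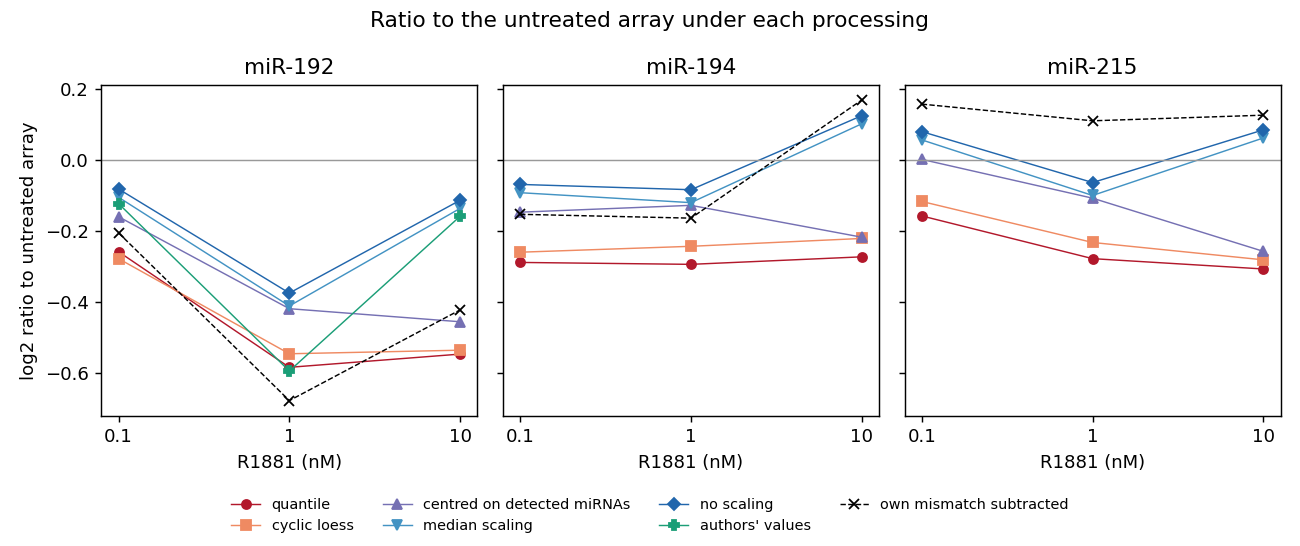
Log2 ratio to the untreated array (vertical axis) at 3 R1881 doses for miR-192, miR-194 and miR-215, 1 line per way of processing, with 1 array per dose and no error bars. Every line for miR-192 is below 0 at all 3 doses, whereas those for miR-194 and miR-215 lie on both sides of 0.

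miR-192 was below the untreated array at all 3 doses under each of the 6 ways of scaling and background correction, in the authors' deposited table and after its mismatch probe was subtracted. Of 99 miRNAs that were detected on all 4 arrays and had a matched probe brighter than the mismatch on each, 5 (5.05%) were below untreated at all 3 doses under those 6 ways and the subtraction. The other 4 were miR-99a, miR-125b, miR-30a-5p and miR-30d, named here after their values were seen. The size for miR-192 varied, with a mean log2 ratio of −0.46 after quantile normalization and −0.19 with no scaling. Set against the median of the detected miRNAs it was nearly the same under both: miR-192 was below that median by a log2 difference of −0.20, −0.57 and −0.50 at 0.1, 1 and 10 nM after quantile normalization and of −0.21, −0.54 and −0.50 with no scaling. By mean ratio 4 of the 136 miRNAs, miR-192 included, were as low as miR-192 after quantile normalization and 5 with no scaling. The counts were 17 and 22 for miR-194 and 29 and 30 for miR-215. This rank and the median above are taken over all 136, which include names detected on only some arrays. Among the names as low as miR-192, miR-663, named after its values were seen, was under the limit at 10 nM (132.5 against 143.5). With no scaling miR-608, under the limit on all 3 treated arrays, was among them too.

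**Figure D4:**
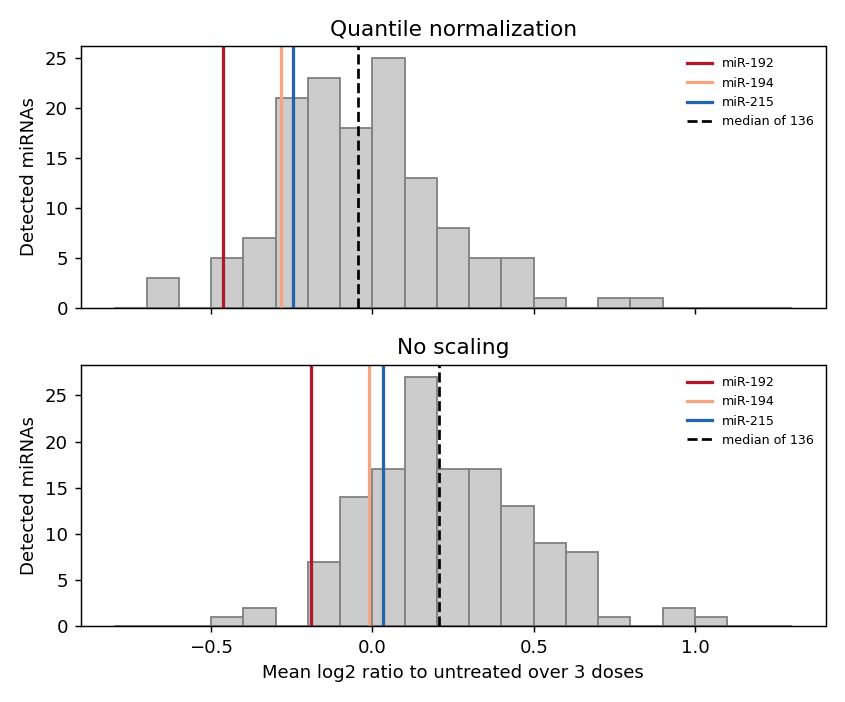
Number of detected human miRNAs (136 in all) by mean log2 ratio to untreated over the 3 doses, after quantile normalization (upper) and with no scaling (lower), with vertical lines for miR-192, miR-194, miR-215 and the median. The whole distribution moves up with no scaling, and miR-192 stays near its lower end, at −0.46 and −0.19.

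A straight line over the order of the doses was fitted for every detected miRNA. The miR-192 slope, in log2 units for each step in dose, was −0.20 ± 0.05 (moderated SE from limma, 4 arrays, adjusted p = 0.127 by limma). miR-215 had −0.10 ± 0.03 (limma, adjusted p = 0.141) and miR-194 had −0.08 ± 0.04 (limma, adjusted p = 0.262). In limma 0 of 136 miRNAs (0%) passed an adjusted p of 0.05, the members among them, and 36 had an unadjusted p under it, 15.4% of the 136 with falling and 11% with rising slopes. The unadjusted p of miR-192 was 0.00893, that of miR-215 0.0218 and that of miR-194 0.124 (limma, 4 arrays). These SE and p values reflect how far the arrays lie from a line, with a variance partly shared over all fitted miRNAs. That scatter may be technical. Under 2 other scalings miR-192 passed with a falling slope, −0.19 ± 0.04 with cyclic loess (limma, adjusted p = 0.0139) and −0.16 ± 0.04 with centring on the detected miRNAs (limma, adjusted p = 0.0454), where 9.56% and 4.41% of the 136 passed with falling slopes. With no scaling its slope was −0.06 ± 0.06 (limma, adjusted p = 0.411).

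The miR-192 values did not follow the order of the doses, except with centring on the detected miRNAs. With that centring the log2 ratios to untreated were −0.16, −0.42 and −0.46 at 0.1, 1 and 10 nM. The intensity was lowest at 1 nM and higher again at 10 nM, and in the authors' deposited table the log2 ratios to untreated were −0.12, −0.59 and −0.16. Leaving out the array at 1 nM gave miR-192 a slope of −0.18 ± 0.05 that passed (limma, adjusted p = 0.0426). In that fit 9 of 136 miRNAs passed, 6 with falling and 3 with rising slopes. Leaving out the untreated array gave miR-192 a slope of −0.14 ± 0.08 (limma, adjusted p = 0.645), and 0 of 122 miRNAs passed. No call of miR-194 or miR-215 changed with any array left out, but the slope of miR-194 without the untreated array was 0.01 ± 0.02 (limma, adjusted p = 0.897).

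The miRNAs closest to each detected member were found by the root-mean-square difference of the 3 quantile-normalized log2 ratios, which all share the untreated array. For miR-192 the nearest was let-7a, a member of a tumour-suppressor family, at 0.10, with ratios of −0.35, −0.44 and −0.56. The let-7a intensities were 2384, 2208.25, 2020.25 and 2437.5 in order of dose, above untreated at 10 nM. With no scaling its mean log2 ratio was −0.10. The next were miR-608 and miR-30d, at 0.11 each. For miR-194 the nearest were miR-31, miR-623 and miR-99b, at 0.04 each. miR-608 and miR-623 were under the detection limit on all 3 treated arrays, so their ratios and places are not measured on both sides. Among miRNAs detected on all 4 arrays, a choice made after the data were seen, miR-26b at 0.19 took the third place for miR-192 and miR-574 at 0.05 that for miR-194. For miR-215 they were miR-141, an epithelial miRNA, at 0.03, and let-7b and miR-425-5p, at 0.04 each. No member was among the nearest 3 of another member. These distances describe 3 ratios from 4 arrays.

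Other miRNAs of the p53 pathway lay on both sides of the untreated level. Of 7 miRNAs recalled as raised or processed more under p53, 5 were detected, 4 of them on all 4 arrays. Of these 4, after quantile normalization, 1 was below and 1 above untreated at all 3 doses, against 35.8% and 27.4% of the 106, and their median mean log2 ratio was 0.06. With no scaling all 4 were above at all 3 doses, as were 70.8% of the 106, with a median of 0.43 against 0.27 over the 106. miR-16, a cell-cycle regulator whose processing p53 promotes, had a ratio of 0.35 at each dose after quantile normalization. With no scaling its ratios were 0.51, 0.61 and 0.95 at 0.1, 1 and 10 nM, with a mean of 0.69. miR-605, which targets the p53 inhibitor MDM2, read 116.75 on the untreated array, under the limit there, and 157.5, 161.75 and 159.5 on the treated ones. It was at least 1.23-, 1.30- and 1.15-fold higher at 0.1, 1 and 10 nM after quantile normalization, against the lowest detected human miRNA of the untreated array. miR-200c, an epithelial miRNA, had a mean ratio of −0.17 that turned to 0.19 with no scaling, and miR-15a had 0.09 and 0.41. miR-143 and miR-145, which p53 helps to process and which mark stroma, were undetected, at 75.75 to 83.5 on all arrays.

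Of 6 miRNAs recalled as targeting the p53 mRNA, 3 were detected, each on all 4 arrays. With quantile normalization and with no scaling, 2 of these were below untreated at all 3 doses, against 35.8% and 5.66% of the 106. Both p53 lists were chosen with earlier results of these data known, so these shares test nothing about them. The 2, miR-125b and miR-30d, were also among the miRNAs named above after their values were seen. miR-125b had ratios of −0.27, −0.85 and −0.80, and miR-30d had −0.37, −0.42 and −0.52. miR-25 had a mean ratio of −0.03 that turned to 0.39 with no scaling. The median of the 3 was −0.44, against −0.0049 over the 106, and −0.13 with no scaling. miR-33, miR-380-5p and miR-504 were undetected. In limma's trend test 0 of the 8 detected miRNAs of both lists passed, with adjusted p = 0.127 for miR-125b and 0.137 for miR-30d.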

How the data were processed

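The deposited array files hold mean spot intensity per probe name, per the file headers, with spots averaged before deposit by the authors. The scanner and any spot filter are not stated in the labels or files. Titles gave each sample's dose group. The 28 mismatch probes at 0 on some array were left out, and the other 1378 probes were background-corrected (limma normexp, offset 50), quantile-normalized and log2-transformed, in limma 3.58.1 under R 4.3.3. Dose trends were fitted in limma on dose rank over the 136 detected human miRNAs, with 2 residual degrees of freedom, empirical Bayes moderation and Benjamini-Hochberg adjustment at 0.05. The trend fit was checked on simulated data with known slopes. Labels describe values relative to the untreated sample, but the arrays hold their own intensities. The members, lists, naming rule (members, seed relatives, the 3 nearest miRNAs, up to 4 detected per p53 list) and tests were chosen with earlier results of these data known. Alternatives were other scalings, background, detection and dose codings, leaving out each array and, added after the files were seen, the authors' value table. The number of arrays limits the precision.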

Additional observations from a re-analysis of the deposited data

Results flagged for a closer look

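A probe for the worm miR-34, which names no human miRNA, exceeded the detection limit at 0 nM, where it read 138 intensity units against a limit of 118, and at 0.1 nM, where it read 137 against 135.5. It read 123 and 133 at 1 and 10 nM, under the limits there. It was singled out because it shows signal outside the human probes, and 16 of 107 virus and worm probes exceeded the limit on the untreated array and 10 at 0.1 nM.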

How the results depend on the processing

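With 1 array per dose, the ratios have no replicate error, and signal over background limits miR-194, miR-215 and all miR-34 probes. The number of miRNAs past the trend threshold in limma, 0 after quantile normalization, was 49 with median scaling, 53 with no scaling, 23 with cyclic loess, 13 with detected-miRNA centring, 18 with no detection filter and 32 in the authors' deposited table, and 0 to 9 with an array left out. The count of members past it, 0, was 1 (miR-192) with cyclic loess, with detected-miRNA centring and with no detection filter (adjusted p = 0.0133, limma), and 0 to 1 with an array left out. No scaling and median scaling differ from centring by 1 constant per array, and dropping the filter adds miRNAs to the fit; otherwise the cause was not tested. Detected members below untreated at all 3 doses numbered 3, but 2 with detected-miRNA centring, 1 with median scaling and 1 with no scaling. The count was 1 in the authors' deposited table, which holds only miR-192. The mean log2 ratio of miR-215 turned from −0.25 to 0.0061 with median scaling and 0.034 with no scaling. The slope of miR-215 turned to 0.0029 and 0.011 under the same settings, and that of miR-194 to 0.028 and 0.036, and across left-out arrays it ran from −0.14 to 0.0085. The slopes of miR-192 and miR-215 ran from −0.28 to −0.14 and from −0.14 to −0.08 across left-out arrays. No paired analysis was possible because each dose has 1 array.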
